A study of Mus with 6 samples.

Results

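The 80 genes described here encode the enzymes and enzyme subunits that build, trim and cut protein-linked glycans and glycosaminoglycans. They were chosen by gene symbol from the table of read counts, and they are 80 of its 11659 genes. The families include the mannosidases (Man1, Man2), the Mgat, Alg, Galnt, Chst, Ext and Ndst enzymes, the oligosaccharyltransferase subunits, and the hyaluronan synthases and hyaluronidases. In all, 184 protein-coding genes carry such a symbol in the RefSeq annotation of GRCm38.p6, of which 106 had a row in the table. Of these rows, 26 lay outside the stretches of the table taken as those where counts and gene labels line up, 6 in a stretch between them and 20 after them. They were left out, and the other 78 genes were not analysed here.

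RNA was measured by sequencing in chondrocytes from the knee cartilage of 12-week-old C57BL/6J mice, with 3 wild-type (WT) samples and 3 samples from conditional Sirt6 knockout (Sirt6 cKO) mice. In the study's knockout line, Sirt6 flox/flox alleles are deleted by Col2a1-CreERT2, a tamoxifen-inducible recombinase driven by the promoter of the cartilage collagen gene Col2a1. The control animals are called wild type in the labels, and the alleles and treatment they carried are not given there. Male mice and first-passage cells grown from digested cartilage were used throughout the study according to its methods. Sirt6 is a deacetylase of the sirtuin family, and the comparison asks which transcripts changed when it was lost. The study describes the chondrocytes as those of 3 control and 3 knockout mice, and the sample labels do not tie each sample to an animal. If samples share animals or cultures, p-values measure only the spread between these samples, which may be technical.

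N-glycans are assembled on the lipid dolichol in the endoplasmic reticulum, moved to asparagine residues of new proteins by oligosaccharyltransferase, trimmed by glucosidases and mannosidases, and then branched and capped in the Golgi. Mucin-type, O-mannose, O-fucose and O-glucose glycans are started on serine or threonine by separate enzyme families. Chondroitin, dermatan and heparan sulfate are long sulfated chains built on a short linker on proteoglycan core proteins, whereas hyaluronan is made free of protein at the cell surface. Cartilage owes its resistance to compression largely to the chondroitin sulfate of aggrecan held on hyaluronan.

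Total counts ranged from 25726958 to 30156935 over the 6 samples, and all 80 genes passed the filter on low counts. Sirt6 had 10273, 9963 and 10943 raw counts in WT, against 1056, 862 and 660 in Sirt6 cKO samples. WT replicate 1 stood apart from the other WT samples. Across genes its log2 counts correlated with theirs at 0.969 and 0.971, against 0.993 between WT replicates 2 and 3. Its normalized counts were 1.21 times the mean of the other WT samples at the median of the shorter genes and 0.912 times at the median of the longer genes, split at an exon length of 3943 bases. Among the 80 genes this ratio ranged from 0.350 to 1.95. Of the 5 chondrocyte markers analysed, Sox9, Comp, Ucma and Col11a1 were higher in Sirt6 cKO and Col9a3 was not called. The 4 are 80.0% of them, against 22.5% of all genes tested. Comp had 15, 14 and 28 raw counts in WT and Ucma 6, 2 and 6. A gene with as few WT counts as Ucma can pass the filter on low counts through the Sirt6 cKO samples alone. The summed level of the 5 ranged from 47.4 to 52.2 in WT and from 89.4 to 109.0 in Sirt6 cKO samples, as RPKM, the read count scaled to exon length and library size. Sox9 alone averaged 46.4 in WT and 71.3 in Sirt6 cKO. Col2a1 and Acan were not analysed here. Of 7 synovial fibroblast markers, 4 were higher and 1 lower, which is 57.1% and 14.3%, against 22.5% and 24.3% of all genes tested. Their summed level was 1057 to 1080 in WT and 2510 to 2802 in Sirt6 cKO samples on the same scale. Col1a1 alone averaged 614 and 1551. Of 2 osteoblast markers, Spp1 was higher (50.0%, against 22.5% of all genes tested) and Runx2 not called. Their summed level was 409 to 513 in WT and 645 to 670 in Sirt6 cKO samples. Nearly all of it was Spp1, which averaged 452 and 651. Of the fibroblast markers, Lum had 0, 4 and 4 raw counts in WT. The others were well above the floor there, from 999, 1096 and 1140 for Pdpn to 98722, 115797 and 123176 for Col1a1. The lower marker was Cd34 (log2 fold change -0.54, edgeR adjusted p = 0.00536). The part of these markers in the results below was not tested. In bulk RNA, fewer cells of a type and less RNA per cell cannot be told apart.

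The 80 genes changed in both directions, and the changes over 2-fold were mostly increases. With the threshold set at an edgeR adjusted p of 0.05, 22 of them rose with the loss of Sirt6, 18 fell and 40 were not called. These are 27.5% and 22.5% of the 80, against 22.5% and 24.3% of the 11246 genes tested in the whole table. With a change over 2-fold, 11 genes were higher (13.8%) and 2 lower (2.50%), against 8.72% and 7.15% of all genes tested. The median log2 fold change was -7.76e-05, against 0.00206 over all genes tested. The genotypes were free of overlap in 58 of the 80 genes, which is 72.5%, against 60.9% of all genes tested. Without WT replicate 1, 27 genes were higher and 22 lower, and every gene called with all 6 samples was still called. Leaving out Sirt6 cKO replicate 1 reduced the lower genes to 11, and leaving out Sirt6 cKO replicate 3 to 10. With upper-quartile scaling factors 25 genes were higher and 12 lower. Of the called genes, 13 of the higher and 9 of the lower kept their call in each of the 6 fits that left out 1 sample. The plot of fold changes by role gives every gene.

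**Figure D1:**
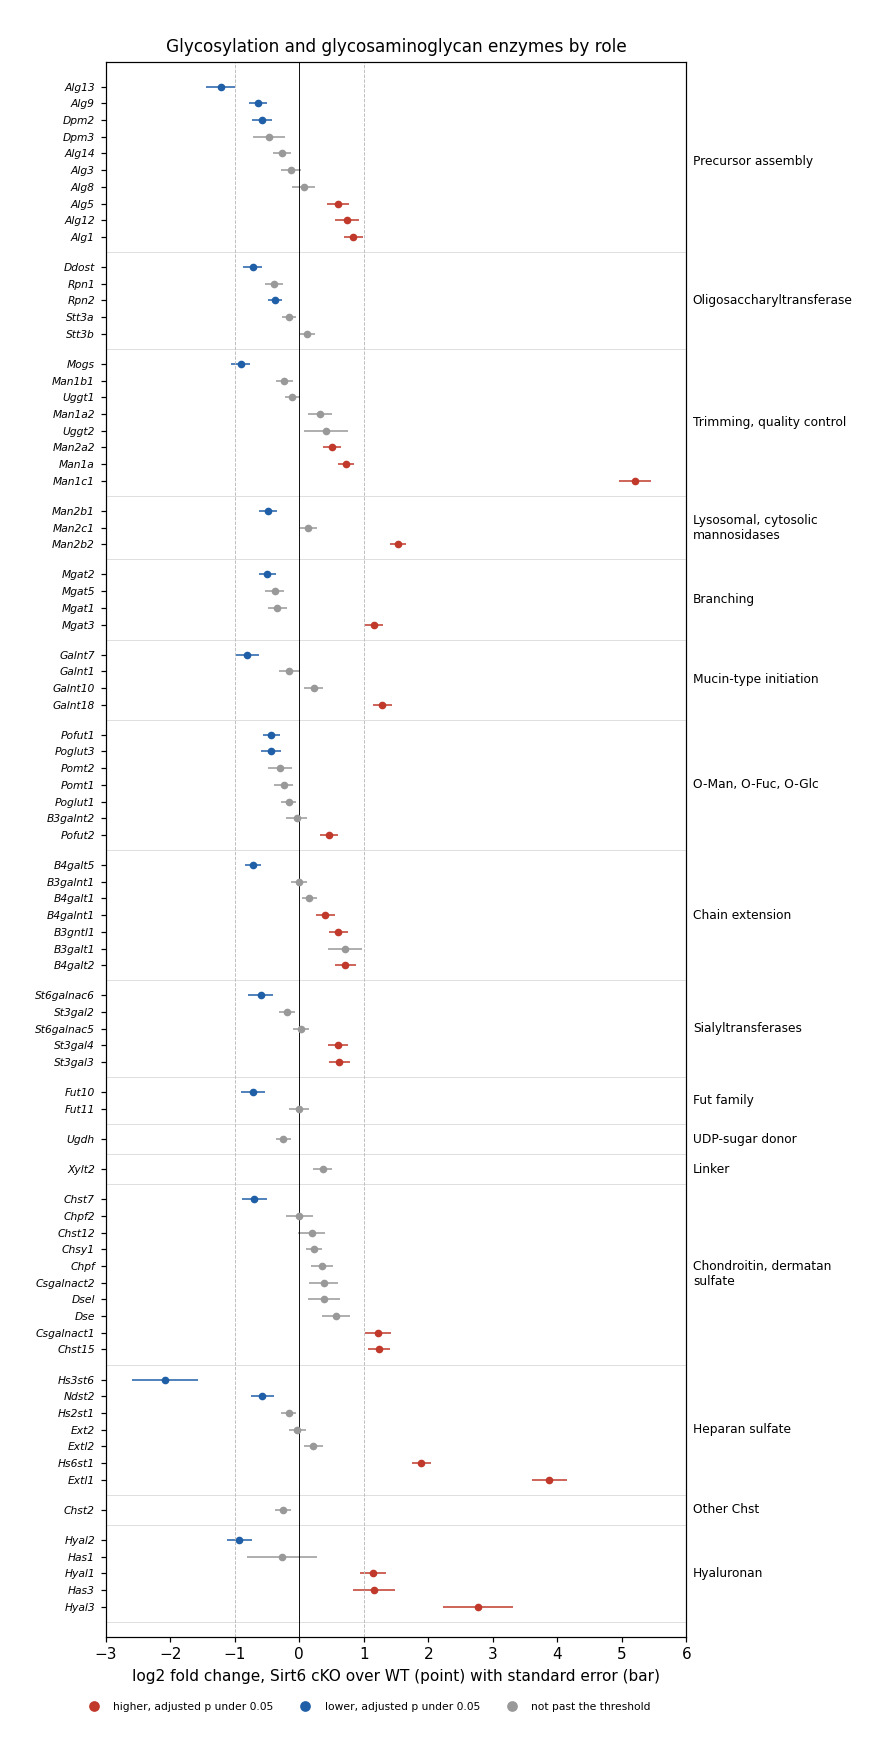
Log2 fold change of the 80 genes between Sirt6 cKO and WT chondrocytes, with the standard error as a bar, grouped by role; red and blue points passed an adjusted p of 0.05 and dashed lines mark a change of 2-fold. Increases past the right line are spread over 7 groups and reach 5.21 for Man1c1, whereas Alg13 and Hs3st6 are the genes past the left line.

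The plot of the 13 genes over 2-fold shows the individual samples. Since these genes were selected by the size and adjusted p of the difference, the absence of overlap between the genotypes in each of them follows largely from that choice, and 60.9% of all genes tested had none.

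**Figure D2:**
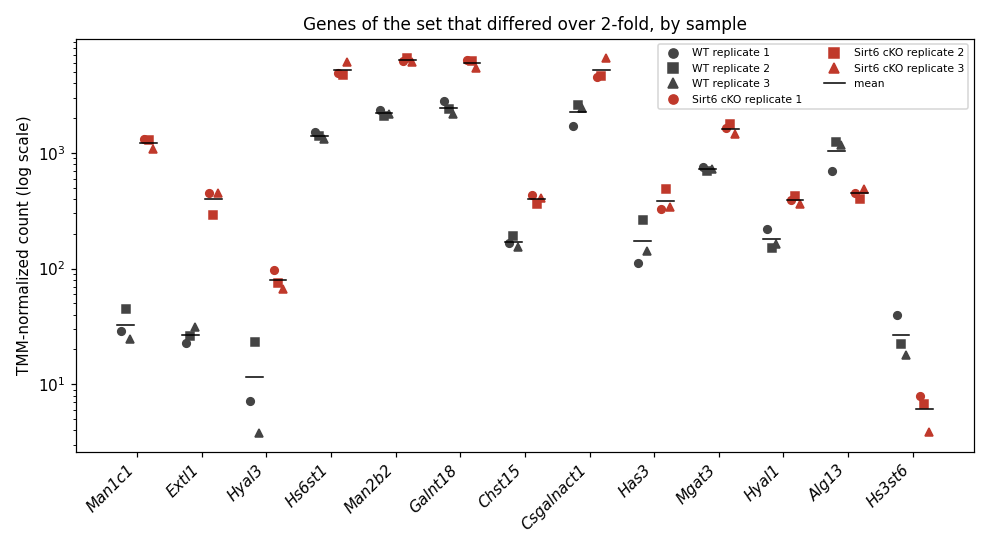
TMM-normalized count of each sample on a log scale for the 13 genes that passed an adjusted p of 0.05 with a change over 2-fold, ordered by fold change; grey symbols are WT, red symbols Sirt6 cKO, the symbol shape gives the replicate and the line the mean of 3. Man1c1 and Extl1 are the genes with the widest gap, and the WT samples of Hyal3 and Has3 are the most scattered.

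Man1c1 had by far the largest change of the 80 genes. It encodes a Golgi alpha-1,2-mannosidase that removes mannose from high-mannose N-glycans, and it lies on the minus strand of chromosome 4 from 134561690 to 134704290 in GRCm38 (ENSMUSG00000037306). It had 24, 46 and 26 raw counts in WT, against 1325, 1343 and 1100 in Sirt6 cKO samples. No sample lay between the groups, and the highest WT sample was far below the lowest Sirt6 cKO sample. Its mean normalized count went from 32.8 ± 10.7 to 1220 ± 131 (SD, n = 3 each), a change of 37.0-fold (log2 fold change 5.21, standard error 0.25, edgeR adjusted p = 4.03e-06). Per length of exon, its level was the lowest of the 80 genes in WT, at 0.199 ± 0.065 RPKM, and rank 60 in Sirt6 cKO, at 7.41 ± 0.80.
The other enzymes with the same activity changed far less. Man1a, another Golgi mannosidase, had 782, 941 and 1077 raw counts in WT, against 1681, 1685 and 1536 in Sirt6 cKO samples, without overlap, and rose by 1.65-fold (edgeR adjusted p = 0.00212). Man1a2, its close relative, had 2894, 5631 and 5701 raw counts in WT, against 6049, 6343 and 6111 in Sirt6 cKO samples. WT replicate 1 was the low sample there, and the log2 fold change of 0.32 did not pass (edgeR adjusted p = 0.175) and was 0.13 without that sample. Man1b1, which trims mannose in quality control of misfolded glycoproteins, had a log2 fold change of -0.23 (edgeR adjusted p = 0.168). Even after its increase, Man1c1 stood at 7.41 RPKM in Sirt6 cKO chondrocytes, against 26.1 for Man1a2, 32.6 for Man1b1 and 6.09 for Man1a. In WT the 4 levels were 0.199, 20.9, 38.2 and 3.68 in the same order.

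Mogs, the glucosidase that removes the outermost glucose and so starts trimming, fell. It had 4612, 4641 and 4761 raw counts in WT, against 2771, 2840 and 2377 in Sirt6 cKO samples. The groups did not overlap, and the gene was 1.88-fold lower in Sirt6 cKO chondrocytes (log2 fold change -0.91, standard error 0.14, edgeR adjusted p = 0.00125). Man2a2, the Golgi mannosidase that acts after the first branch is set, was 1.42-fold higher (edgeR adjusted p = 0.0158), but did not pass without Sirt6 cKO replicate 1, Sirt6 cKO replicate 2 or WT replicate 3 (edgeR adjusted p between 0.0599 and 0.0728). The glucosyltransferases that mark misfolded glycoproteins, Uggt1 and Uggt2, had log2 fold changes of -0.11 and 0.41 and were not called. Uggt2 had 261 raw counts in WT replicate 1 against 878 and 904 in the other WT samples, and its log2 fold change was 0.07 without WT replicate 1.

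Mannosidases of breakdown moved apart. Man2b2, a lysosomal mannosidase (chromosome 5 from 36806921 to 36830653, minus strand), had 1958, 2149 and 2267 raw counts in WT, against 6306, 6945 and 6312 in Sirt6 cKO samples. The samples within each genotype were close and the groups far apart. Its normalized count rose from 2198 ± 128 to 6333 ± 277 (SD, n = 3 each), which was 2.88-fold (log2 fold change 1.53, standard error 0.12, edgeR adjusted p = 3.81e-05). Man2b1, the major lysosomal alpha-mannosidase, fell, with a log2 fold change of -0.48 (edgeR adjusted p = 0.023). It did not pass without Sirt6 cKO replicate 1, Sirt6 cKO replicate 3, WT replicate 2 or WT replicate 3, with an edgeR adjusted p of at most 0.0928 in these fits. Man2c1, which acts on free oligosaccharides in the cytosol, had a log2 fold change of 0.14 and was not called.

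Genes of precursor assembly did not move as one. Of the 10 Alg and Dpm genes, 3 rose and 3 fell (30.0% each, near the 22.5% and 24.3% of all genes tested), with a median log2 fold change of -0.20. Alg13, the catalytic part of the enzyme that adds the second N-acetylglucosamine to dolichol, had 585, 1270 and 1240 raw counts in WT, against 456, 420 and 505 in Sirt6 cKO samples (chromosome X from 144317812 to 144374450). WT replicate 1 was the lowest of the WT samples but still above every Sirt6 cKO sample. Alg13 was 2.32-fold lower in Sirt6 cKO (log2 fold change -1.22, standard error 0.22, edgeR adjusted p = 0.00266), and its log2 fold change was -1.43 without WT replicate 1. Alg14, its membrane anchor, had a log2 fold change of -0.27 and was not called (edgeR adjusted p = 0.140).
Alg9, a mannosyltransferase, and Dpm2, a subunit that stabilizes dolichol-phosphate-mannose synthase, fell by 0.64 and 0.58 on the log2 scale (edgeR adjusted p = 0.00493 and 0.0135). Dpm2 did not pass without Sirt6 cKO replicate 3 (edgeR adjusted p = 0.0528). The rising genes were Alg1, which adds the first mannose, with a log2 fold change of 0.84, Alg12, a later mannosyltransferase, with 0.74, and Alg5, which makes dolichol-phosphate-glucose, with 0.60 (edgeR adjusted p = 0.00224, 0.012 and 0.0201). Alg12 did not pass without Sirt6 cKO replicate 2 (edgeR adjusted p = 0.0546), and Alg5 did not pass without Sirt6 cKO replicate 3, WT replicate 2 or WT replicate 3 (edgeR adjusted p between 0.0578 and 0.0720). Of the exon bases of Alg1, 17.6% also belong to Eef2kmt on the other strand, a gene with a log2 fold change of 0.84. A gene on the other strand with a log2 fold change of 1.87 holds 12.9% of those of Alg9. The strand setting of the counting is not given in the sources used here. Alg3, Alg8 and Dpm3 were not called, with log2 fold changes of -0.13, 0.07 and -0.46.

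Of the 5 oligosaccharyltransferase subunits in the set, 2 fell, which is 40.0% against 24.3% of all genes tested. The call of 1 of them was lost in most fits without a sample. Of further subunits outside the symbol rule, Ost4 and Tmem258 were lower, with log2 fold changes of -0.87 and -0.69 (edgeR adjusted p = 0.0139 and 0.0368). Ostc, Krtcap2, Magt1 and Tusc3 were not called. Rpn1, Rpn2 and Ddost held ranks 1, 2 and 3 of the 80 genes per exon length in both genotypes. Ddost, a subunit needed for the stability of the complex, had 8668, 8067 and 8281 raw counts in WT, against 5496, 5743 and 5065 in Sirt6 cKO samples. The groups did not overlap, and it was 1.65-fold lower in Sirt6 cKO (log2 fold change -0.72, standard error 0.15, edgeR adjusted p = 0.00438). Rpn2 fell by 0.37 on the log2 scale (edgeR adjusted p = 0.024), but passed in none of the fits that left out a sample other than WT replicate 1 (edgeR adjusted p between 0.0575 and 0.103). Rpn1 had a log2 fold change of -0.39, which did not pass (edgeR adjusted p = 0.0518). It passed with the replicate number as a block (edgeR adjusted p = 0.0453) and without WT replicate 1 (edgeR adjusted p = 0.0358). The catalytic subunits Stt3a and Stt3b had log2 fold changes of -0.15 and 0.12 and were not called. The summed level of the 5 subunits lay between 541.6 and 636.9 in WT and between 439.2 and 463.5 in Sirt6 cKO samples, in RPKM. The sum over all genes tested was also lower in Sirt6 cKO, with a mean of 439176 against 509224 in WT. That sum includes rows outside the stretches where counts and labels line up. Counts there may be scaled to the exon length of another gene.

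Among the branching enzymes the bisecting enzyme rose. Mgat3, which adds the bisecting N-acetylglucosamine that blocks further branching, had 635, 713 and 767 raw counts in WT, against 1675, 1854 and 1483 in Sirt6 cKO samples (chromosome 15 from 80173721 to 80215519). The groups were well apart, and the change was 2.23-fold (log2 fold change 1.16, standard error 0.14, edgeR adjusted p = 0.0003). Mgat2, which starts the second antenna and was the most abundant of the family, fell, with 5074, 5078 and 5392 raw counts in WT, against 3803, 4034 and 3961 in Sirt6 cKO samples, a log2 fold change of -0.49 (edgeR adjusted p = 0.0133). It did not pass without Sirt6 cKO replicate 1 (edgeR adjusted p = 0.0670). Mgat1, which starts the first antenna, and Mgat5, which makes a further branch, had log2 fold changes of -0.34 and -0.38. Neither passed (edgeR adjusted p = 0.0792 and 0.0693), although the genotypes did not overlap in either gene. Mgat5 passed without WT replicate 1 (edgeR adjusted p = 0.0439). Per exon length, Mgat2 stood at 71.5 and Mgat3 at 5.42 RPKM in WT, against 50.7 and 12.1 in Sirt6 cKO.

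Enzymes that extend and cap the chains changed by less than 2-fold. Of 7 galactosyl-, GlcNAc- and GalNAc-transferases, 3 rose and 1 fell, which is 42.9% and 14.3%, against 22.5% and 24.3% of all genes tested. B4galt5, which makes lactosylceramide, had 3707, 4200 and 4065 raw counts in WT, against 2617, 2663 and 2502 in Sirt6 cKO samples, without overlap, and was 1.64-fold lower (edgeR adjusted p = 0.00194). B4galt2, a galactosyltransferase of N-glycans, had 4387, 3822 and 3915 raw counts in WT, against 7350, 7656 and 6459 in Sirt6 cKO samples, and was 1.64-fold higher (edgeR adjusted p = 0.00806). Ccdc24 shares 28.2% of the exon bases of B4galt2 on the same strand and had a log2 fold change of 2.68, so reads of the shared bases cannot be told apart. B3gntl1 rose by 0.60 on the log2 scale (edgeR adjusted p = 0.0103), but not past the threshold without Sirt6 cKO replicate 1 (edgeR adjusted p = 0.0517). B4galnt1, which makes complex gangliosides, rose by 0.41 (edgeR adjusted p = 0.0491) and passed in none of the fits that left out a sample other than WT replicate 1 (edgeR adjusted p between 0.0747 and 0.190). B3galt1 had a log2 fold change of 0.71 that did not pass (edgeR adjusted p = 0.0522) but passed with the replicate block (edgeR adjusted p = 0.0160). It also passed without WT replicate 1 (edgeR adjusted p = 0.0318). B4galt1 and B3galnt1 were not called, with log2 fold changes of 0.16 and -0.003.
Among 5 sialyltransferases, St3gal3 and St3gal4, which add sialic acid to galactose, rose by 0.62 and 0.59 on the log2 scale (edgeR adjusted p = 0.012 and 0.013). St6galnac6, which acts on gangliosides, fell by 0.59 (edgeR adjusted p = 0.0311). These calls are 40.0% higher and 20.0% lower among the 5, against 22.5% and 24.3% of all genes tested. St3gal3 did not pass without Sirt6 cKO replicate 1 (edgeR adjusted p = 0.0587). St3gal4 did not pass without Sirt6 cKO replicate 1, Sirt6 cKO replicate 2 or WT replicate 3 (edgeR adjusted p between 0.0521 and 0.0624), nor did St6galnac6 without any 1 of the Sirt6 cKO samples (edgeR adjusted p between 0.0592 and 0.114). St3gal2, the most abundant of the 5, and St6galnac5 had log2 fold changes of -0.19 and 0.03 and were not called. In the Fut family, Fut10 was 1.65-fold lower (edgeR adjusted p = 0.0121), with 521, 676 and 597 raw counts in WT, against 411, 449 and 298 in Sirt6 cKO samples. Fut11 did not pass, with a log2 fold change of -0.01.

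Of the 4 enzymes that start mucin-type O-glycans, 1 rose and 1 fell, and 25.0% in each direction is near the 22.5% and 24.3% of all genes tested. Galnt18 (chromosome 7 from 111471661 to 111779977, minus strand) had 2333, 2470 and 2258 raw counts in WT, against 6482, 6460 and 5546 in Sirt6 cKO samples. All Sirt6 cKO samples lay well above the WT samples, and its normalized count rose from 2449 ± 323 to 5988 ± 528 (SD, n = 3 each), which was 2.45-fold (log2 fold change 1.29, standard error 0.15, edgeR adjusted p = 0.000238). Galnt7, which prefers peptides that already carry a sugar, had 1019, 1938 and 1956 raw counts in WT, against 978, 1024 and 935 in Sirt6 cKO samples. WT replicate 1 lay close to the Sirt6 cKO samples. The gene was 1.74-fold lower (log2 fold change -0.80, edgeR adjusted p = 0.00735), and its log2 fold change was -0.98 without WT replicate 1. Galnt1 and Galnt10 were not called with all samples, with log2 fold changes of -0.15 and 0.22. Both passed without WT replicate 1, with log2 fold changes of -0.29 and 0.37 (edgeR adjusted p = 0.0298 and 0.00725).
Changes were small in the enzymes of O-mannose, O-fucose and O-glucose glycans, which modify proteins such as dystroglycan and Notch. Pofut2, which puts fucose on thrombospondin repeats, rose by 0.47 on the log2 scale (edgeR adjusted p = 0.0218). Pofut1, which puts it on the epidermal growth factor-like repeats of Notch, fell by 0.44 (edgeR adjusted p = 0.0252), as did Poglut3, a glucosyltransferase of such repeats, by 0.43 (edgeR adjusted p = 0.0477). Pofut1 and Poglut3 passed in none of the fits that left out a sample other than WT replicate 1, where the edgeR adjusted p reached 0.0791 and 0.159. Pofut2 did not pass without Sirt6 cKO replicate 1, Sirt6 cKO replicate 2, WT replicate 2 or WT replicate 3 (edgeR adjusted p between 0.0758 and 0.0945). Pomt1, Pomt2, Poglut1 and B3galnt2 were not called, with log2 fold changes between -0.30 and -0.04.

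Glycosaminoglycan genes held 7 of the 11 increases over 2-fold. Of the 24 genes that supply, build, sulfate or cut glycosaminoglycans, 7 were higher and 4 lower. These are 29.2% and 16.7% of the 24, against 22.5% and 24.3% of all genes tested, and over 2-fold 29.2% were higher against 8.72%. The 7 include Hyal3, which had 6, 24 and 4 raw counts in WT. Such a gene can pass the filter on low counts through the Sirt6 cKO samples alone. They also include Hyal1, which shares exon bases with Hyal3, and Has3, whose call was lost in 2 fits without a sample. The first steps are thinly covered. Ugdh, which makes UDP-glucuronic acid, and Xylt2, which sets the first xylose of the linker, were the genes of these steps in the set. Of genes outside the symbol rule, Fam20b, the kinase of the linker xylose, was higher (log2 fold change 0.57, edgeR adjusted p = 0.00459). Ugp2, which makes UDP-glucose, was not called (log2 fold change 0.32, edgeR adjusted p = 0.0807). Ugdh had a log2 fold change of -0.25 and Xylt2 of 0.36, and neither passed (edgeR adjusted p = 0.111 and 0.0638). Without WT replicate 1 both passed, with an edgeR adjusted p of 0.0437 for Ugdh and 0.00319 for Xylt2.

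Of 10 genes of chondroitin and dermatan sulfate, 9 had a log2 fold change above 0, of which 2 passed, and 1 gene fell. The 2 are 20.0% of the 10, near the 22.5% of all genes tested that were called higher. Csgalnact1, which starts the chondroitin chain on the linker and is a main enzyme of chondroitin sulfate synthesis in cartilage, lies on chromosome 8 from 68356781 to 68735146 (ENSMUSG00000036356). It had 1427, 2663 and 2568 raw counts in WT, against 4603, 4853 and 6747 in Sirt6 cKO samples. WT replicate 1 was the lowest sample and Sirt6 cKO replicate 3 the highest, and the groups did not overlap. Its mean normalized count went from 2249 ± 476 to 5247 ± 1136 (SD, n = 3 each), a change of 2.33-fold (log2 fold change 1.22, standard error 0.21, edgeR adjusted p = 0.0019), with a log2 fold change of 1.06 without WT replicate 1. Chst15, which adds a second sulfate to chondroitin sulfate A to form chondroitin sulfate E, had 140, 195 and 160 raw counts in WT, against 437, 378 and 417 in Sirt6 cKO samples. The groups were well separated, with a change of 2.35-fold (log2 fold change 1.23, standard error 0.17, edgeR adjusted p = 0.000711).
Chst7, a chondroitin 6-O-sulfotransferase, fell, with 427, 399 and 431 raw counts in WT, against 318, 288 and 224 in Sirt6 cKO samples (log2 fold change -0.70, edgeR adjusted p = 0.0176). It did not pass without Sirt6 cKO replicate 2 or Sirt6 cKO replicate 3 (edgeR adjusted p = 0.0531 and 0.0582). The polymerizing enzymes Chsy1, Chpf and Chpf2 had log2 fold changes of 0.23, 0.35 and 0.003 and were not called. Chpf passed without WT replicate 1 (edgeR adjusted p = 0.00726). Of the exon bases of Chpf2, 45.9% also belong to a gene on the other strand. Dse, the epimerase that turns chondroitin into dermatan sulfate, had 2000, 4081 and 4211 raw counts in WT, against 4816, 4819 and 6263 in Sirt6 cKO samples. Its log2 fold change of 0.57 did not pass (edgeR adjusted p = 0.0545), but passed with the replicate block (edgeR adjusted p = 0.0112) and without any 1 of the WT samples (edgeR adjusted p = 0.0406 without WT replicate 1). Its relative Dsel, and also Csgalnact2 and Chst12, had log2 fold changes between 0.19 and 0.39 and were not called.

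Heparan sulfate genes held the second largest increase of the set. Extl1, an exostosin-like glycosyltransferase, lies on chromosome 4 from 134356372 to 134383850 (ENSMUSG00000028838). It had 19, 27 and 33 raw counts in WT, against 460, 301 and 464 in Sirt6 cKO samples. The counts were low in every WT sample, and the lowest Sirt6 cKO sample was far above them. Its mean normalized count went from 26.8 ± 4.36 to 397.5 ± 94.7 (SD, n = 3 each), which was 14.7-fold higher (log2 fold change 3.88, standard error 0.27, edgeR adjusted p = 1.77e-05). Ext2, a subunit of the heparan sulfate polymerase, and Extl2 had log2 fold changes of -0.03 and 0.22 and were not called.
Hs6st1, which adds sulfate to the 6-O position of glucosamine, had 1268, 1426 and 1385 raw counts in WT, against 4970, 4912 and 6273 in Sirt6 cKO samples (chromosome 1 from 36068400 to 36106446, ENSMUSG00000045216). Its WT samples were close together, and all Sirt6 cKO samples were above them. Its mean normalized count went from 1408 ± 100 to 5233 ± 755 (SD, n = 3 each), which was 3.72-fold higher (log2 fold change 1.89, standard error 0.15, edgeR adjusted p = 3.49e-05). Its level per exon length moved from rank 44 to rank 10 of the 80 genes. None of the other heparan sulfate sulfation genes analysed (Ndst2, Hs2st1 and Hs3st6) was called higher. Ndst2, which exchanges acetyl for sulfate on glucosamine, fell by 0.57 on the log2 scale (edgeR adjusted p = 0.0276), but did not pass without Sirt6 cKO replicate 1, Sirt6 cKO replicate 3 or WT replicate 2 (edgeR adjusted p between 0.0528 and 0.0796). Hs2st1, the 2-O-sulfotransferase, had a log2 fold change of -0.16 and was not called. Hs3st6, a 3-O-sulfotransferase, had 33, 23 and 19 raw counts in WT, against 8, 7 and 4 in Sirt6 cKO samples. These counts are close to the detection floor, and the groups did not overlap (log2 fold change -2.08, standard error 0.51, edgeR adjusted p = 0.0106). Without WT replicate 1 the log2 fold change of Hs3st6 was -1.70. The related sulfotransferase Chst2, which acts on N-acetylglucosamine of keratan sulfate and other glycans, was not called, with a log2 fold change of -0.26.

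Hyaluronan genes changed in both directions. The hyaluronidases Hyal1, Hyal2 and Hyal3 lie side by side on chromosome 9, and Hyal2, which cleaves hyaluronan at the cell surface, had 1494, 1243 and 1178 raw counts in WT, against 669, 743 and 815 in Sirt6 cKO samples. The groups did not overlap, and Hyal2 was 1.90-fold lower (log2 fold change -0.93, standard error 0.20, edgeR adjusted p = 0.00505). Hyal1, the lysosomal hyaluronidase, had 185, 153 and 173 raw counts in WT, against 399, 443 and 371 in Sirt6 cKO samples. It was higher in every Sirt6 cKO sample, by 2.21-fold (log2 fold change 1.14, standard error 0.20, edgeR adjusted p = 0.00196). Hyal3 had 6, 24 and 4 raw counts in WT, against 99, 79 and 68 in Sirt6 cKO samples. WT replicate 2 was the highest of the WT samples, and all were far below the Sirt6 cKO samples (log2 fold change 2.77, standard error 0.54, edgeR adjusted p = 0.00368). Without WT replicate 2 the log2 fold change of Hyal3 was 3.88.
These genes share exon bases. Of those of Hyal1, 50.8% also belong to Naa80 on the same strand, which had a log2 fold change of -1.10, and 4.21% belong to Hyal3, so reads of the shared bases cannot be told apart. Per exon length, Hyal2 stood at 25.2 ± 6.6 RPKM in WT, against 1.64 ± 0.35 for Hyal1 and 0.204 ± 0.19 for Hyal3 (SD, n = 3 each). In Sirt6 cKO chondrocytes the levels were 13.2 ± 1.2, 3.61 ± 0.29 and 1.42 ± 0.29.
The hyaluronan synthases were near the bottom of the levels. Has3 had 93, 272 and 148 raw counts in WT, against 333, 513 and 349 in Sirt6 cKO samples. Its WT samples were spread widely but did not overlap the Sirt6 cKO samples, and the change was 2.23-fold (log2 fold change 1.16, standard error 0.32, edgeR adjusted p = 0.0179). It did not pass without Sirt6 cKO replicate 2 or WT replicate 3 (edgeR adjusted p = 0.0732 and 0.0519). Without WT replicate 1 its log2 fold change was 0.93. Has1 had 17, 49 and 72 raw counts in WT, against 20, 69 and 30 in Sirt6 cKO samples. The genotypes overlapped fully, and the log2 fold change of -0.26 was not called (edgeR adjusted p = 0.717).

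In WT chondrocytes they ran from 0.199 RPKM for Man1c1 to 158 for Rpn1, and in Sirt6 cKO chondrocytes from 0.175 for Hs3st6 to 121 for Rpn1. Man1c1, Hyal3 and Extl1, the genes with the largest fold changes, held ranks 80, 79 and 78 in WT. The WT level is the denominator of the fold, and a gene with as few WT counts as Hyal3 can pass the filter on low counts through the Sirt6 cKO samples alone, so nothing is read from this. Among the abundant genes, Galnt18 moved from rank 15 to rank 5, Man2b2 from rank 26 to rank 7 and Mogs from rank 6 to rank 18. Neighbours at the top did not differ beyond their spread, with Rpn1 at 158 ± 25.6 and Rpn2 at 148 ± 7.2 RPKM in WT (SD, n = 3 each).

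**Figure D3:**
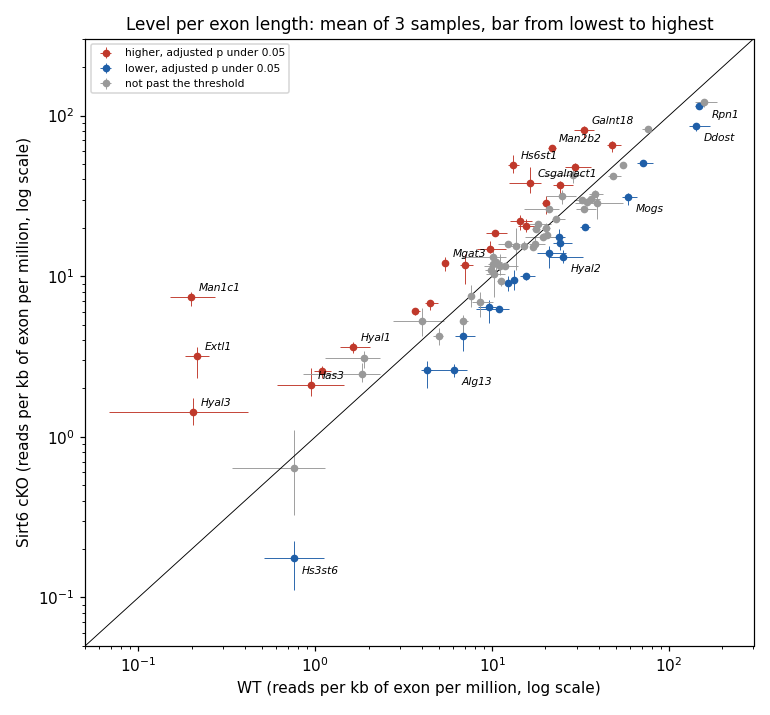
Mean level of the 80 genes in WT (horizontal) and Sirt6 cKO chondrocytes (vertical) in RPKM on log axes, with bars from the lowest to the highest of 3 samples and the line of equal levels. Man1c1, Extl1 and Hyal3 sit far above the line at WT levels near 0.2, and the oligosaccharyltransferase genes Rpn1 and Ddost sit below it at the top.

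Summed over all 80 genes, the level did not differ beyond the spread of the samples, at 1847 ± 125 in WT and 1851 ± 50.9 in Sirt6 cKO chondrocytes (SD, n = 3 each), in RPKM. For heparan sulfate genes the sum ranged from 74.0 to 81.9 in WT and from 107.5 to 116.2 in Sirt6 cKO samples, and for chondroitin and dermatan sulfate genes from 116.0 to 131.1 and from 167.0 to 188.6. The rise of the heparan sulfate sum was that of Hs6st1, since the other 6 genes summed to 64.5 in WT and 62.9 in Sirt6 cKO chondrocytes on average and overlapped. Without Csgalnact1 the other 9 chondroitin and dermatan sulfate genes ranged from 103.6 to 113.3 in WT and from 133.9 to 140.9 in Sirt6 cKO samples, without overlap. The mucin-type initiating enzymes summed to 81.5 ± 3.1 in WT and 126 ± 6.4 in Sirt6 cKO chondrocytes (SD, n = 3 each), and the level of Galnt18 alone was 33.0 and 80.8. Branching enzymes lay between 107.6 and 131.6 in WT and between 91.9 and 96.7 in Sirt6 cKO samples, and overlapped without Mgat2. The trimming enzymes lay between 172.9 and 178.1 in WT and between 154.2 and 169.4 in Sirt6 cKO samples. Without Mogs their sum turned, to between 111.9 and 120.5 in WT and between 126.4 and 136.7 in Sirt6 cKO samples. The hyaluronan genes ranged from 24.1 to 35.9 in WT and from 19.6 to 22.1 in Sirt6 cKO samples, and the mannosidases of breakdown from 43.1 to 47.7 and from 79.4 to 88.1. Each of these 2 sums was carried by 1 gene. Without Hyal2 the other hyaluronan genes summed to 3.54 in WT and 7.77 in Sirt6 cKO chondrocytes on average, and without Man2b2 the other mannosidases summed to 23.1 and 20.4, with overlap. In each of these 7 full sums, as in that of oligosaccharyltransferase, the genotypes did not overlap. The sum over all 11246 genes tested was itself lower in Sirt6 cKO samples without overlap, at 433894 to 446712 against 476706 to 571126 in WT. It includes rows outside the stretches where counts and labels line up. Counts there may be scaled to the exon length of another gene, so that sum is a rough guide. A lower sum or its lack of overlap is therefore not read as particular to these groups. The sums of precursor assembly, of the O-mannose, O-fucose and O-glucose enzymes, of the extending enzymes, of the sialyltransferases and of the Fut genes overlapped. WT replicate 1 was the highest WT sample in precursor assembly, at 206.1 against 161.4 and 163.1. No test was made on these sums.

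**Figure D4:**
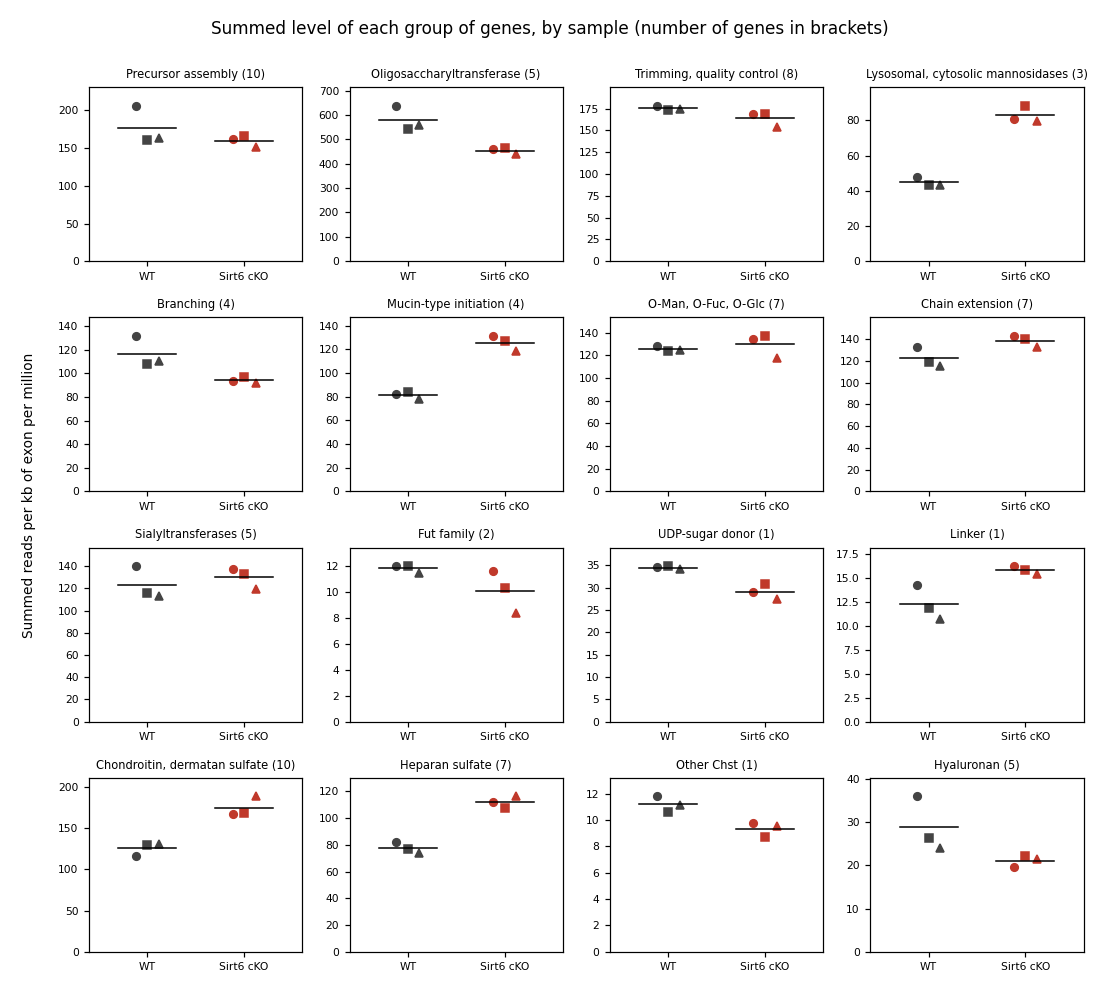
Summed level of each group of genes by sample, in RPKM on an axis from 0, with grey symbols for WT, red symbols for Sirt6 cKO and a line at the mean of 3; the symbol shape gives the replicate and the number of genes is in brackets. The heparan sulfate sum, carried by Hs6st1, and the chondroitin sulfate sum lie higher and the oligosaccharyltransferase sum lower in all Sirt6 cKO samples.

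Both of the largest increases lie close together in the genome. Extl1 and Man1c1 are 177.8 kb apart on chromosome 4, and a search for pairs of the 80 genes less than 500 kb apart found 10 pairs. Extl1 and Man1c1 were chosen for description after their values were seen. Of the 5 rows of the table between them, Pafah2 and Mtfr1l lie where counts and labels line up. Mtfr1l had a log2 fold change of 0.75 (edgeR adjusted p = 0.0024) and Pafah2 of 0.20 (edgeR adjusted p = 0.293). Neither approached the increases of the genes on their sides. Among the other pairs, Hs6st1 rose while Uggt1, 35.1 kb away, was not called, and B4galt2 and St3gal3, 48.7 kb apart, both rose, and of the 3 genes between them 2 were called higher and 1 lower. Dpm2 and St6galnac6, 26.1 kb apart on chromosome 2, both fell. Hyal2 fell beside Hyal1 and Hyal3, which rose and overlap each other. In the remaining pairs, Fut11 with Ndst2 and Pomt1 with Dpm2 and with St6galnac6, 1 gene fell and the other was not called.

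The other genes of the pathway were read from lists that the symbol rule does not include. Of 10 proteoglycan core proteins analysed, 5 rose and 3 fell, which is 50.0% and 30.0%, against 22.5% and 24.3% of all genes tested. Dcn, the core protein of decorin, which carries a chondroitin or dermatan sulfate chain, had 2068, 4455 and 3714 raw counts in WT, against 36771, 37758 and 35254 in Sirt6 cKO samples, and was 10.3-fold higher (edgeR adjusted p = 1.07e-05). Lum, the core protein of lumican, had 257, 249 and 326 raw counts in Sirt6 cKO samples, against at most 4 in WT. Agrn, the heparan sulfate proteoglycan agrin, rose by 2.42-fold (edgeR adjusted p = 7.81e-05). The 3 that fell, named after their values were seen, were Gpc1, which was 1.88-fold lower, Sdc1, which was 1.63-fold lower, and Sdc4, which was 1.36-fold lower (edgeR adjusted p = 0.00197, 0.00613 and 0.0313). Bgn, the core protein of biglycan, was 1.92-fold higher (edgeR adjusted p = 0.000248), and Hspg2, the core protein of perlecan, had a log2 fold change of 0.26 and was not called. Dcn and Lum are also among the synovial fibroblast markers above. The summed level of the 10 core proteins was 682 in WT and 1448 in Sirt6 cKO chondrocytes on average, in RPKM, and 624 and 856 without Dcn.
Of 8 lysosomal enzymes that break down glycosaminoglycans, 5 rose and 2 fell, which is 62.5% and 25.0%, against 22.5% and 24.3% of all genes tested. Idua, the iduronidase of dermatan and heparan sulfate, had 131, 221 and 179 raw counts in WT, against 711, 736 and 624 in Sirt6 cKO samples, and was 3.70-fold higher (edgeR adjusted p = 8.62e-05). Naglu, which acts on heparan sulfate, was 2.36-fold higher (edgeR adjusted p = 0.000215).
Of 16 other genes of nucleotide-sugar synthesis, 5 rose and 4 fell (31.2% and 25.0%), and in this list and the next 2 the shares were near the 22.5% and 24.3% of all genes tested or below them. The largest changes were those of Gmppa, a regulator of GDP-mannose synthesis, with a log2 fold change of 1.35, Galk1, the galactokinase, with -0.97, and Galt, the next enzyme of galactose use, with 0.91 (edgeR adjusted p = 0.000378, 0.00789 and 0.00908). Of 8 genes of the Slc35 family, which includes the nucleotide-sugar transporters, 2 rose and 1 fell (25.0% and 12.5%). Their log2 fold changes were 0.82 for Slc35b1, 0.48 for Slc35a1, the CMP-sialic acid transporter, and -0.45 for Slc35d1. Of 24 other glycosylation enzymes, 6 rose and 5 fell (25.0% and 20.8%), and those with the largest changes were Lfng, a modifier of O-fucose on Notch, with a log2 fold change of -1.28, Ogt, the O-GlcNAc transferase, with 1.17, and Ost4, a small oligosaccharyltransferase subunit, with -0.87. Ogt had 3421 raw counts in WT replicate 1 against 12528 and 11699 in the other WT samples.

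**Figure D5:**
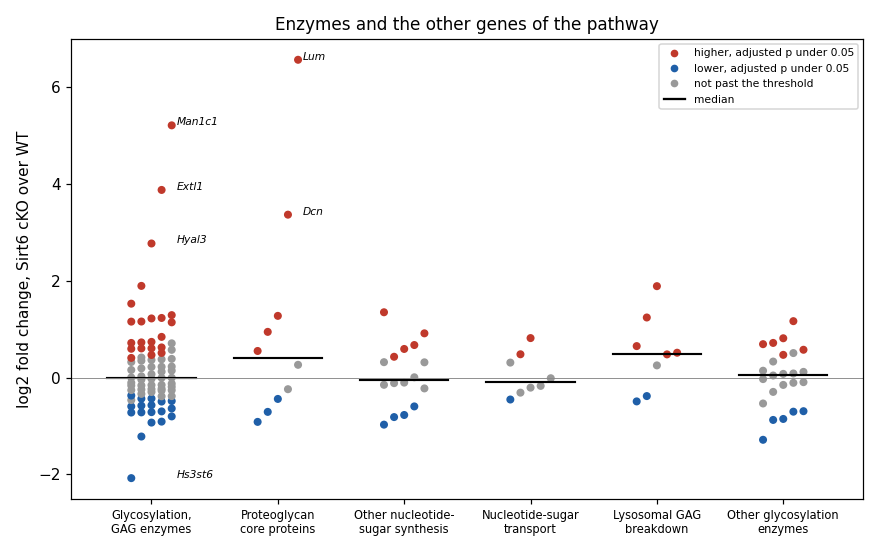
Log2 fold change between Sirt6 cKO and WT chondrocytes of the 80 enzymes and of the genes of 5 related lists, with the median of each list as a line; red and blue points passed an adjusted p of 0.05. The median is above 0 for the proteoglycan core proteins (0.41) and the lysosomal enzymes of glycosaminoglycan breakdown (0.50) and near 0 for the others.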

How the data were processed

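Raw counts for each Ensembl gene in all 6 samples, as deposited by the authors, stood beside exon positions and lengths in a featureCounts layout. The submitters' processing notes list cutadapt, HISAT2 2.0.5, StringTie and the build hg19, whereas the positions in the table are those of mouse genes in GRCm38. The counter and its strand setting are not given in the sources used here. Rows were named by overlap of their span with RefSeq genes of GRCm38.p6, at a shared part of at least 0.5, which named 10638 of 11659 rows (8.89% when shifted by 1 Mb). Rows with identifier numbers from 1 to 20900 and from 25770 to 48200 were used. Exon length was related to the count of the same row there (Spearman's rho 0.251 and 0.295) but not in the stretch between them (-0.00236, against 0.266 with the count 1 row further down). In the rows after the ranges rho was 0.372 in the same row and highest, at 0.503, with the count 3 rows further up. It was similar at the other shifts, so the alignment there is less certain, and these rows were left out of the set.

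All 6 samples were fitted on the whole table with edgeR 4.0.16 in R 4.3.3 (TMM, filterByExpr, glmQLFit, glmQLFTest, genotype as the only term), with Benjamini-Hochberg adjustment over 11246 genes. The fit was tested on simulated data. The standard error is the log2 fold change over the root of F. Levels per exon length are RPKM with TMM factors. The members and lists were chosen with earlier results of these data known. Named are Man1c1, genes over 2-fold, the 2 of highest level in each group and their families. Others are named for completeness. Deviations of same-numbered samples of both genotypes were weakly correlated (0.262, 0.104 and 0.136), against -0.227 to 0.0620 for differently numbered samples. The number was therefore used as a block in an alternative. Their numbers are those of the labels. The other alternatives were DESeq2 1.42.0, limma-voom (limma 3.58.1), other scalings and filters, a stricter threshold, rows outside the ranges, and leaving out each sample. No sequence was analysed here.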

Additional observations from a re-analysis of the deposited data

How the results depend on the processing

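The 13 genes that differed over 2-fold kept their direction in all alternatives that gave a value, and apart from Has3 they also kept an adjusted p under 0.05 and a change over 2-fold where tested. Their log2 fold changes ranged from 5.04 to 5.52 for Man1c1, from 3.77 to 4.06 for Extl1, from 1.78 to 1.97 for Hs6st1 and from 2.35 to 3.88 for Hyal3. Has3 ranged from 0.93 to 1.62. With at least 10 counts in every sample, Hs3st6 and Hyal3 could not be fitted, and 1 gene over 2-fold was lower. At an adjusted p under 0.01, 13 genes were higher and 7 lower. Leaving out 1 sample gave 16 to 27 higher and 10 to 22 lower genes, 10 to 11 over 2-fold higher and 2 to 3 over 2-fold lower, and a median log2 fold change between -0.0313 and 0.0759. The median was 0.0805 with upper-quartile factors, 0.0546 with total counts alone and 0.0861 with the rows outside the identifier ranges added, where 31 genes were higher and 22 lower. The replicate block gave 24 higher and 19 lower genes and changed no call other than those of Rpn1, B3galt1 and Dse. Upper-quartile factors ended the calls of Rpn2, Man2b1, Pofut1, Poglut3, St6galnac6 and Ndst2 (adjusted p between 0.0554 and 0.102) and added B3galt1, Xylt2 and Dse. DESeq2 added Rpn1, B3galt1, Xylt2 and Dse, limma-voom B3galt1 and Dse, RLE factors B3galt1, and total counts alone Xylt2. That of Poglut3 also ended with RLE factors, with total counts alone and with at least 10 counts in every sample, and that of B4galnt1 without a filter.

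Genes near 0 changed sign without being called. Fut11 was at 0.0038 with DESeq2 and with RLE factors, 0.0738 with upper-quartile factors, 0.0470 with total counts alone, 0.0062 with at least 10 counts in every sample, and between -0.135 and 0.113 without 1 sample, of which 0.0118, 0.0045 and 0.0072 were also above 0. Ext2 was at 0.05005 with upper-quartile factors, 0.0286 with total counts alone and between -0.0603 and 0.0595 without 1 sample. Without 1 sample, Alg8 ranged from -0.0552 to 0.175, Chst12 from -0.0285 to 0.406 and Has1 from -0.907 to 0.170. The cause was not tested. Depth limits Hs3st6 and Hyal3, which rest on fewer than 10 counts in some samples.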
